A study of Rattus norvegicus with 6 samples.

Results

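The genes described here are 10 of the protein-coding genes of the rat mitochondrial genome, chosen by symbol. They are Mt-nd1, Mt-nd2, Mt-nd4, Mt-nd5 and Mt-nd6 of complex I, Mt-cyb of complex III, Mt-co1, Mt-co2 and Mt-co3 of complex IV, and Mt-atp6 of complex V. All 10 were in the deposited table of 24988 genes, and all 10 passed the filter on low counts that left 16522 genes for testing. The tissue was the aneurysmal abdominal aorta of Sprague-Dawley rats, with 3 RNA libraries of aneurysms treated with NP, called a targeted nanotherapy in the title, and 3 libraries of untreated aneurysms. All 6 libraries therefore carry an aneurysm, and no healthy aorta is among them. Age, sex, the composition of NP, its dose and timing, and the way the aneurysm was made are not stated in the labels. The labels do not say that each library came from its own rat, so p-values measure only the spread between these libraries.

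The respiratory chain of the inner mitochondrial membrane passes electrons through its complexes to oxygen and pumps protons, and ATP synthase uses the proton gradient to make ATP. A small circular genome inside the mitochondrion encodes a core set of subunits, while most subunits, and the whole of complex II, are encoded in the nucleus. Mitochondrial DNA is transcribed from both strands into long precursors that are cut at the tRNAs between the genes. Mt-nd6 alone among these genes lies on the light strand, and the other members are read from the heavy strand. In the aortic wall smooth muscle cells, fibroblasts, endothelial cells and infiltrating leukocytes all contribute mitochondrial transcripts, and in whole tissue fewer cells of a type and less RNA per cell cannot be told apart.

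Total counts per library ranged from 26100468 to 30939002. Defining markers of smooth muscle were present in every library, with Myh11 at 485 to 1702 CPM and Acta2 at 555 to 1909 CPM (counts scaled to a common library size). Markers of tissues rich in mitochondria were low in sum. The 7 cardiac markers summed to 2.56 to 13.3 CPM in NP-treated and 3.34 to 11.2 CPM in untreated aortas, mostly from Tnnt2 where high, and Actc1 was at 0. The 8 skeletal muscle markers found summed to 19.7 to 33.7 CPM in NP-treated and 25.7 to 42.4 CPM in untreated aortas, with Tnnt3 at 8.83 to 21.3 CPM and Ckm at most 2.49 CPM. The 7 brown fat markers summed to 11.6 to 23.3 CPM in NP-treated and 11.6 to 17.8 CPM in untreated aortas, mostly from Cidea, while Ucp1 was at most 0.290 CPM and Elovl3 was at 0. Of 8 adipocyte markers 6 were wholly lower in NP-treated libraries, as were 3.2% of all tested genes. By DESeq2 3 of the 8 had an adjusted p under 0.05, as did 0.151% of 19150 genes, and by edgeR 0 of the 8 did. These 3 were Pck1, Gpd1 and Retn, with adjusted p-values of 0.00054, 0.0071 and 0.0133 by DESeq2 and log2 fold changes of -3.37, -2.65 and -1.87 by edgeR. Plin1, which coats lipid droplets, had 7.91, 45.4 and 62.4 CPM in NP-treated aortas, against 153, 140.5 and 162 CPM in untreated aortas. The mean centred log2 level of the adipocyte markers was -2.45, -0.18 and -0.62 in NP-treated replicates 1, 2 and 3, against 1.22, 1.08 and 0.94 in untreated replicates 1, 2 and 3. Their sum, 839 to 2266 CPM in NP-treated and 1477 to 2180 CPM in untreated aortas, overlapped. Most of that sum was Fabp4, a fatty acid binding protein, at 2229, 1739 and 647 CPM in NP-treated and 1119, 811 and 1612 CPM in untreated aortas, the 1 adipocyte marker with a fold above 1. The part of these cells in the values below was not tested. Whether the authors counted reads by strand is not stated, so reads of Mt-nd6 cannot be told apart from antisense reads of the heavy-strand precursor. Nuclear copies of mitochondrial DNA can share reads with every member, which makes the levels uncertain to that extent.

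The 10 genes together took between 8.21% and 13.3% of all counts, and the untreated libraries lay inside the range of the NP-treated ones. Their share was 10.35%, 8.21% and 13.3% in NP-treated replicates 1, 2 and 3, and 11.8%, 12.3% and 8.84% in untreated replicates 1, 2 and 3. The highest and the lowest of the 6 libraries were both NP-treated, and they differed 1.62-fold. Means were 10.6 ± 2.57% in NP-treated and 10.97% ± 1.87% in untreated aortas (SD, n = 3 each), a difference of -0.35 percentage points that was smaller than either SD. Behind these shares stood 2142313 to 3739111 counts per library, summed over the 10 genes.

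**Figure D1:**
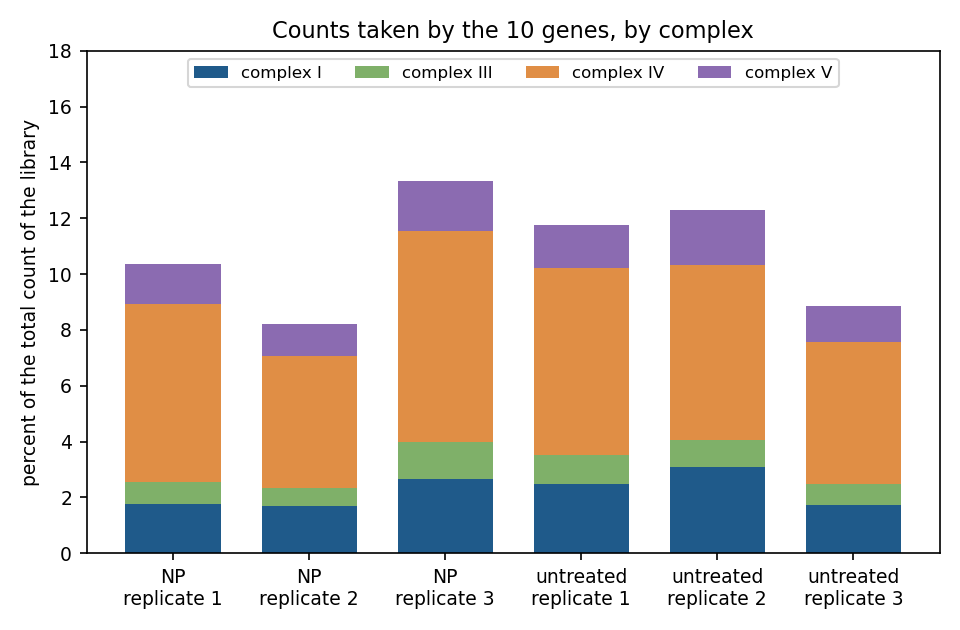
Percent of the total count of each library taken by the 10 genes, with bars starting at 0 and stacked by complex, NP-treated libraries on the left and untreated libraries on the right. NP-treated replicate 3 has the tallest bar, at 13.3%, and NP-treated replicate 2 the shortest, at 8.21%.

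Levels of different genes were compared per length, as FPKM (fragments scaled by gene length and library size) deposited by the authors. Mt-atp6, Mt-co1, Mt-co3 and Mt-co2 held ranks 1 to 4 of the whole table, with means over the 6 libraries of 18086, 17827, 15901 and 13629.6 FPKM. Mt-nd1, Mt-cyb and Mt-nd2 followed with 7669, 6467 and 4804 FPKM, and Mt-nd4, Mt-nd6 and Mt-nd5 were lowest with 2298, 1331 and 1003 FPKM, at ranks 25, 47 and 63. The complex IV and complex V transcripts thus stood above every complex I transcript in each library, and complex III lay among the upper complex I transcripts.

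Some neighbours in this order were not separated. Mt-atp6 exceeded Mt-co1 in 2 of 6 libraries, and Mt-nd6 exceeded Mt-nd5 in 4 of 6. Mt-co3 was above Mt-co2, Mt-nd1 above Mt-cyb, and Mt-cyb above Mt-nd2 in 5 of 6 libraries each. The step from Mt-co1 to Mt-co3 held in 6 of 6 libraries but was small, a ratio of 1.05 to 1.16. The steps from Mt-co2 to Mt-nd1, from Mt-nd2 to Mt-nd4 and from Mt-nd4 to Mt-nd6 also held in 6 of 6, the first at a ratio of 1.41 to 2.36.

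**Figure D2:**
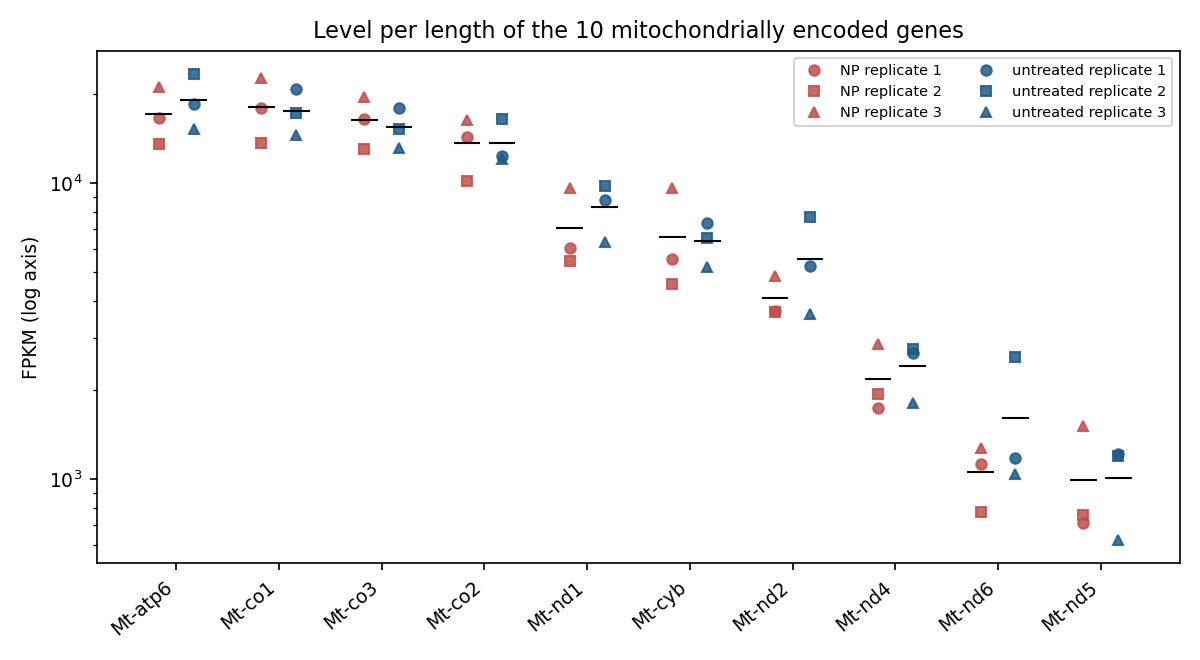
FPKM of the 10 genes on a log axis, ordered by their mean over 6 libraries; each point is a library, NP-treated to the left and untreated to the right of each position, and black bars are group means. The complex IV and V genes lie between 10189 and 23367 FPKM, Mt-nd5 and Mt-nd6 between 623 and 2591 FPKM, and the points of both groups overlap for each gene.

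Complex IV, cytochrome c oxidase, is built around its mitochondrially encoded core, in which Mt-co1 carries the heme and copper centre that reduces oxygen. Mt-co1 had 39194, 23951 and 42539 CPM in NP-treated replicates 1, 2 and 3, against 38192, 33579.9 and 28354 CPM in untreated replicates 1, 2 and 3. NP-treated libraries held both the highest and the lowest value, and the groups overlapped. Mt-co2, which accepts electrons from cytochrome c, had 13852, 7912 and 13583 CPM in NP-treated aortas, against 9998, 14214 and 10414 CPM in untreated aortas. Mt-co3, a core subunit that carries no metal centre, had 18265.5, 11601 and 18626 CPM in NP-treated aortas, against 16647, 15131 and 12924 CPM in untreated aortas. In each of the 3 genes NP-treated replicate 2 was the lowest library. The log2 fold changes (NP-treated minus untreated) were 0.08 (SE 0.39) for Mt-co1, 0.03 (SE 0.36) for Mt-co2 and 0.12 (SE 0.34) for Mt-co3.

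Mt-atp6 encodes the subunit of complex V, ATP synthase, that forms the proton path beside the rotating ring. It had 16096, 10465 and 17470.5 CPM in NP-treated replicates 1, 2 and 3, against 14916, 20077 and 13086 CPM in untreated replicates 1, 2 and 3. Untreated replicate 2 was highest and NP-treated replicate 2 lowest, with the other 4 libraries between them. Its log2 fold change was -0.13 (SE 0.36).

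Mt-cyb encodes cytochrome b, the subunit of complex III that holds both quinone sites. Its values were 9014, 5906 and 13308 CPM in NP-treated aortas, against 9929.98, 9420.3 and 7493 CPM in untreated aortas. The untreated libraries lay inside the range of the NP-treated ones. Means were 9409 ± 3717 CPM in NP-treated and 8948 ± 1285 CPM in untreated aortas (SD, n = 3 each), a log2 fold change of 0.07 (SE 0.38).

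The complex I members belong to the membrane arm, which pumps protons. Mt-nd1, at the junction with the arm that oxidises NADH, had 8179, 5934 and 11106 CPM in NP-treated aortas, against 9927, 11788.5 and 7618 CPM in untreated aortas. Mt-nd2, an antiporter-like subunit, had 5466, 4347 and 6102 CPM in NP-treated aortas, against 6476, 10095 and 4725 CPM in untreated aortas. For both genes untreated replicate 2 was highest and NP-treated replicate 2 lowest, and the groups overlapped. Mt-nd4, another antiporter-like subunit, had 3407, 3029.9 and 4771 CPM in NP-treated aortas, against 4361, 4804 and 3142 CPM in untreated aortas. Mt-nd5, the antiporter-like subunit at the far end of the arm, had 1843, 1572 and 3353 CPM in NP-treated aortas, against 2629, 2776 and 1434 CPM in untreated aortas. Mt-nd5 was the only member with its lowest value in untreated replicate 3.

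Mt-nd6, the light-strand gene, encodes a subunit whose helix takes part in coupling within complex I. It had 827, 456 and 802 CPM in NP-treated aortas, against 726, 1696 and 680.1 CPM in untreated aortas. Untreated replicate 2 stood apart, at more than any other library, and the other 5 lay between 456 and 827 CPM. Of the 10 genes Mt-nd6 varied most, with its highest library 3.72 times its lowest, and by this ratio Mt-nd4 and Mt-co3 varied least, at 1.59 and 1.61 times.

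The comparison of NP-treated with untreated aortas asks which transcripts differed with treatment, and by edgeR's quasi-likelihood test 0 of the 10 had an adjusted p under 0.05. Over all 16522 tested genes 0 passed (0% of genes), 319 genes (1.93%) had an unadjusted p under 0.05, and DESeq2 and limma-voom called 29 (0.151% of 19150 genes with an adjusted p) and 0 genes. By DESeq2 and limma-voom 0 of the 10 passed as well, and 0 of the 10 had an unadjusted p under 0.05 by edgeR. The smallest unadjusted p was that of Mt-nd6, at 0.223 (log2 fold change -0.57, SE 0.43, adjusted p of 0.999992 by edgeR). Mt-nd2 came next, with a log2 fold change of -0.42 (SE 0.37). Without untreated replicate 2, which held the highest value of both, these fold changes were -0.018 and -0.079.

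Directions were mixed. The fold was below 1 in 6 of the 10 genes, the 5 of complex I and Mt-atp6, and above 1 in the 4 of complexes III and IV, where 44.4% of all tested genes had a fold below 1. The median log2 fold change of the 10 was -0.07, beside 0.04 over all tested genes. NP-treated and untreated values overlapped in 10 of the 10, and over all tested genes 5.67% did not overlap. Which way the majority pointed depended on single libraries, since 9 of the 10 had a fold below 1 without NP-treated replicate 3 or without untreated replicate 3, and 4 of the 10 did without NP-treated replicate 2 or without untreated replicate 2.

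The 95% intervals bound what could be seen with 3 libraries a group. Their lower ends ran from -1.58 for Mt-nd6 to -0.69 for Mt-co3, and their upper ends from 0.44 for Mt-nd2 and Mt-nd6 to 1.001 for Mt-co1. Each interval included 0, which does not show that the groups had equal levels.

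**Figure D3:**
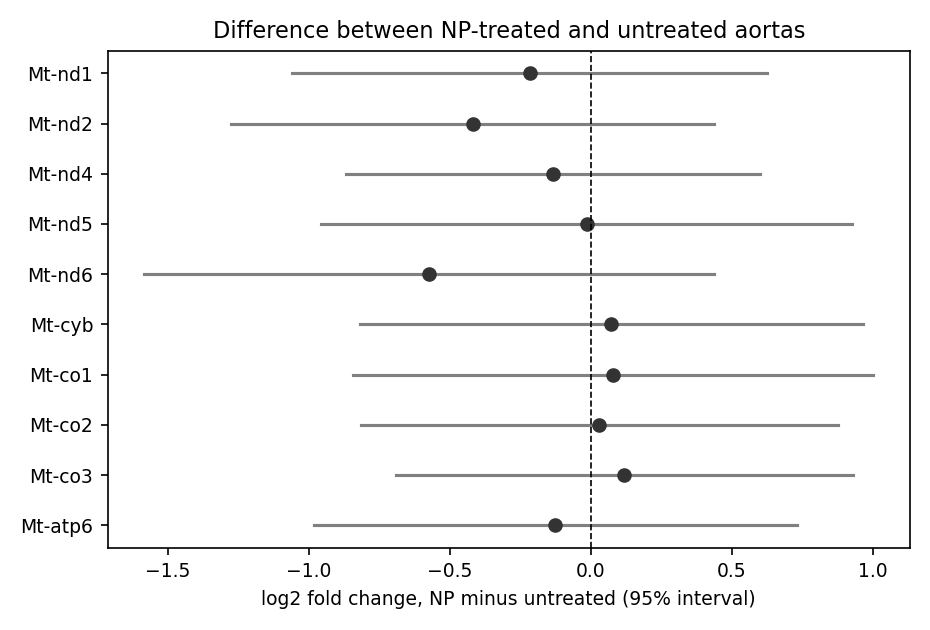
Log2 fold change of the 10 genes, NP-treated minus untreated, as points with 95% intervals as lines; the dashed line marks no difference. Each interval crosses 0, with points from -0.57 for Mt-nd6 to 0.12 for Mt-co3.

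The 10 genes moved largely together from library to library. Their median SD of log2 CPM over the 6 libraries was 0.36, beside 0.39 for all tested genes and 0.40 for the 82 genes with a mean of at least 1000 CPM. The mean of the 10 genes, each centred over the libraries, was 0.03, -0.52 and 0.30 in NP-treated replicates 1, 2 and 3, and 0.09, 0.375 and -0.27 in untreated replicates 1, 2 and 3. This shared level carried 72.5% of their summed variance on the log2 scale. All 10 genes share each library's depth and scaling, so this is a description. Mt-atp6 and Mt-nd1 followed the mean most closely, with root-mean-square differences of 0.07 and 0.08 on the log2 scale, and Mt-nd6 least, at 0.35.

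What was left after the shared level was a difference in make-up, which needs no scaling between libraries because each gene is taken as a percent of the summed counts of the 10. Complex IV genes made up 61.4%, 57.8% and 56.8% of these counts in NP-treated replicates 1, 2 and 3, against 56.97%, 50.9% and 57.5% in untreated replicates 1, 2 and 3. Complex I genes made up 16.98%, 20.4% and 19.85% in NP-treated aortas, against 21.2%, 25.2% and 19.6% in untreated aortas. Untreated replicate 2 had the lowest complex IV share and the highest complex I share of all libraries, and the groups overlapped in both.

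By gene, Mt-nd6 was 1.37% of the summed counts in untreated replicate 2 and 0.606% to 0.757% in the other 5 libraries. Mt-nd2 was 8.17% there and 4.635% to 5.78% in the others, whereas Mt-co1 was 27.2% there and 31.55% to 33.75% in the others. Per length, Mt-nd6 stood at 0.150 of Mt-co1 in untreated replicate 2, against 0.0561 to 0.0714 in the other libraries. This library was also highest in summed T cell markers, at 199 CPM against at most 68.3 CPM elsewhere. The same held for summed B and plasma cell markers, at 227 CPM against at most 137 CPM elsewhere. Summed skeletal muscle markers were highest there too, at 42.4 CPM against at most 33.7 CPM elsewhere. By mean centred log2 level, cardiac muscle (1.18) and macrophage (0.33) markers were also highest there and erythroid markers (-1.23) lowest, though not by sum. The part of these cell types in the make-up was not tested. The mean absolute deviation of the 10 shares from their own means was 0.28 on the log2 scale in untreated replicate 2, and 0.07 to 0.17 in the other libraries.

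Mt-nd1 was the 1 member of the 10 whose share did not overlap between groups. It was 7.04%, 7.89% and 8.435% of the summed counts in NP-treated replicates 1, 2 and 3, against 8.72%, 9.54% and 8.48% in untreated replicates 1, 2 and 3. The groups were separated only by the small gap between replicates 3. Over all tested genes set against the same sum, 2.43% did not overlap. Mt-co2 had its lowest share, 8.785%, in untreated replicate 1, against 10.3% to 11.9% in the other 5 libraries.

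**Figure D4:**
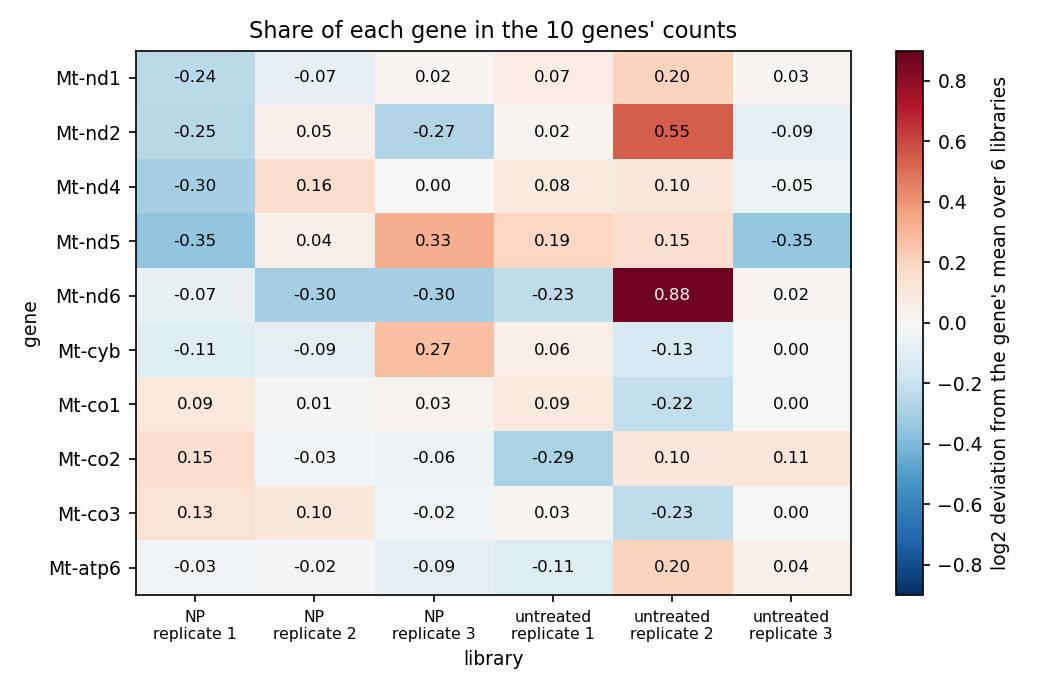
Each gene's share of the summed counts of the 10 genes, as the log2 deviation from that gene's mean over the 6 libraries, with NP-treated libraries on the left. The strongest cell is Mt-nd6 in untreated replicate 2, at 0.88, followed by Mt-nd2 in the same library, at 0.545.

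The other 3 rows of the table with the mitochondrial prefix were Mt-nd3, Mt-nd4l and Mt-atp8. Mt-nd4l, which shares its transcript and some bases with Mt-nd4, had 260.4, 327 and 655 CPM in NP-treated aortas, against 582, 395 and 249 CPM in untreated aortas. Mt-atp8, which shares its transcript with Mt-atp6, stood at 0.449 to 0.557 of Mt-atp6 per length in NP-treated and 0.4299 to 0.5965 in untreated aortas. The ratio of Mt-nd4l to Mt-nd4 per length was 0.3545, 0.501 and 0.637 in NP-treated aortas, against 0.619, 0.381 and 0.367 in untreated aortas. For such short genes the length used by the authors weighs heavily in FPKM, and overlapping genes can share reads. The log2 fold changes of Mt-nd3, Mt-nd4l and Mt-atp8 were 0.17 (SE 0.33), 0.02 (SE 0.44) and -0.13 (SE 0.32), and 0 of the 3 passed the threshold by edgeR.

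Nuclear genes for the same complexes ranked the libraries in another order than the mitochondrial ones did. Summed over the 75 nuclear subunit genes found for complexes I, III, IV and V, the level was 11540, 6161 and 5538 CPM in NP-treated replicates 1, 2 and 3, against 6168, 7514 and 7277 CPM in untreated replicates 1, 2 and 3. NP-treated replicate 1 was therefore highest in nuclear subunits while its mitochondrial genes lay near the middle, and NP-treated replicate 3 was lowest in nuclear subunits while its mitochondrial share of counts was the highest. The mean centred log2 level was 0.63 in NP-treated replicate 1 and -0.33 in NP-treated replicate 3 for the nuclear subunits, against 0.03 and 0.30 for the mitochondrial genes. NP-treated replicate 1 also had the lowest mean centred log2 level of adipocyte (-2.45), endothelial (-1.48) and smooth muscle (-0.56) markers of the 6 libraries. The same held for its mast cell (-1.93), B and plasma cell (-1.68), T cell (-0.826), skeletal muscle (-0.678), fibroblast (-0.455) and brown fat (-0.201) markers. That library was not the lowest in cardiac muscle (0.728), neutrophil (-0.702) or erythroid (-0.524) markers. By summed CPM it was the highest of the 6 libraries in adipocyte (2266), mast cell (70.4) and brown fat (23.3) markers. Its summed T cell markers, at 54.1 CPM, were above the 38.7 CPM of NP-treated replicate 2. Its summed endothelial (400), smooth muscle (2455), B and plasma cell (20.6), skeletal muscle (19.7) and fibroblast (2679) markers were the lowest. Its macrophage markers were mixed, with a mean of 0.26 against -0.43 to 0.33 elsewhere. Spp1, which encodes osteopontin, was at 10760 CPM in that library against at most 3039 CPM elsewhere. Cd68 and C1qa were also highest there, at 1912 and 905.7 CPM, against at most 1515 and 765.2 CPM elsewhere. Csf1r, at 622.7 CPM, was exceeded only in untreated replicate 2, at 721.5 CPM. The scavenger receptor Cd163, at 7.73 CPM, and the mannose receptor Mrc1, at 144 CPM, were instead at their lowest there. Adgre1, at 54.78 CPM, was just above its lowest value, 54.74 CPM in NP-treated replicate 2. The part of these cell types in the nuclear subunit levels was not tested.

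Of the 77 nuclear subunit genes tested, complex II included, 0 passed the threshold by edgeR, 0 by DESeq2 and 0 by limma-voom, and 0 had an unadjusted p under 0.05 by edgeR. The fold was above 1 in 66 of the 77, where 55.6% of all tested genes had a fold above 1, and the median log2 fold change was 0.12. That direction rested on NP-treated replicate 1, without which 75 of the 77 had a fold below 1 and the median was -0.255. It also weakened without untreated replicate 1, to 47 of the 77 above 1 and a median of 0.0512. Over all tested genes 55.2% were then above 1, with a median of 0.049. With all 6 libraries the fold was above 1 in 26 of 34 genes of complex I, 4 of 4 of complex II, 9 of 9 of complex III, 12 of 13 of complex IV and 15 of 17 of complex V. Ndufv1, the flavin-binding subunit that oxidises NADH, had 82.3, 71.5 and 63.8 CPM in NP-treated aortas, against 70.9, 104.6 and 85.2 CPM in untreated aortas. Atp5f1e, the epsilon subunit of ATP synthase, had 655, 286 and 236 CPM in NP-treated aortas, against 268, 240.2 and 321 CPM in untreated aortas. The excess of NP-treated replicate 1 was thus seen in Atp5f1e and not in Ndufv1.

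**Figure D5:**
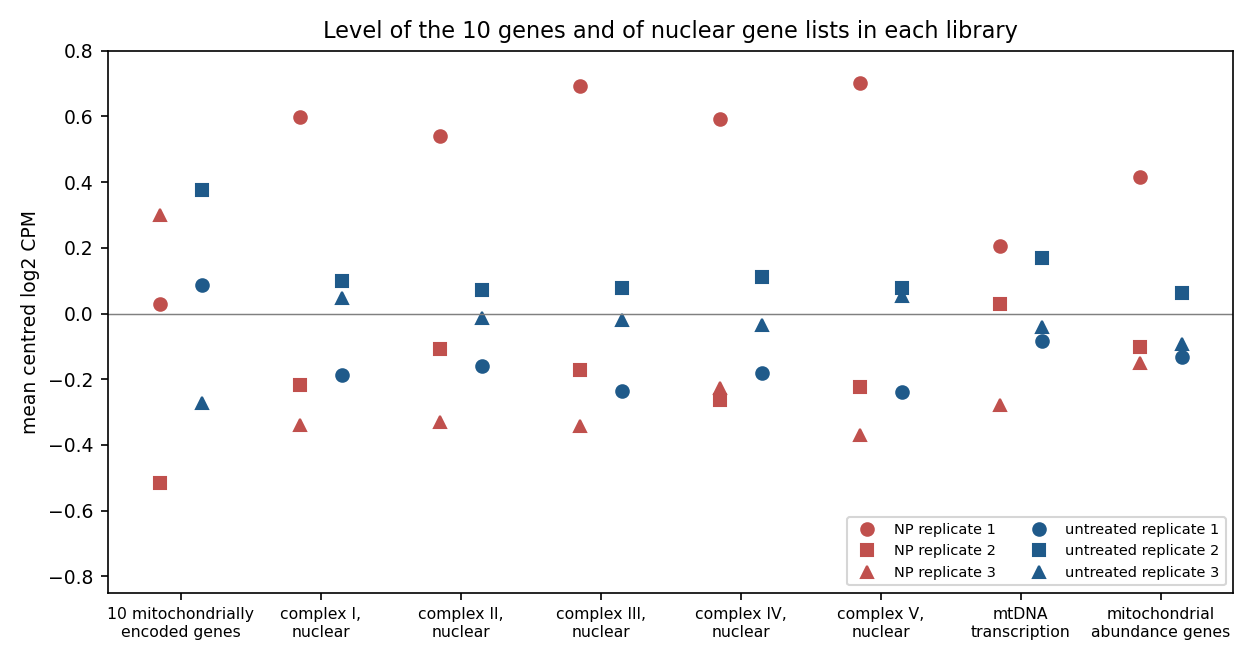
Mean log2 CPM of each gene list after centring each gene over the 6 libraries, with NP-treated libraries to the left and untreated libraries to the right of each position; 0 is the mean of the 6 libraries. NP-treated replicate 1 is the top point of each nuclear list shown, at 0.54 to 0.70 for the 5 complexes, and lies at 0.03 for the 10 mitochondrially encoded genes.

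Genes that make and handle mitochondrial RNA were then counted. Of 10 genes for mitochondrial transcription, 6 had a fold above 1, beside 55.6% of all tested genes. Without NP-treated replicate 1 it was 2 of 10, beside 49.7% of all tested genes. The median log2 fold change with all libraries was 0.05, and 0 of the 10 passed the threshold by edgeR. Tfam, which packages mitochondrial DNA and starts its transcription, had 21.99, 19.8 and 18.35 CPM in NP-treated aortas, against 19.3, 17.05 and 19.6 CPM in untreated aortas, a nearly level series. Tefm, the elongation factor of the mitochondrial RNA polymerase, had 3.77, 2.42 and 2.43 CPM in NP-treated aortas, against 2.19, 2.43 and 2.21 CPM in untreated aortas. Mterf2, of the family named after mitochondrial termination factors, was low, at 0.508, 1.44 and 0.8099 CPM in NP-treated aortas, against 1.92, 1.52 and 1.09 CPM in untreated aortas.

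Among 20 tested genes of mitochondrial RNA processing and stability, 8 had a fold above 1, beside 55.6% of all tested genes. Without NP-treated replicate 1 it was 3 of 20, beside 49.7%, and without untreated replicate 1 it was 4 of 20, beside 55.2%. With all libraries 0 of the 20 passed the threshold by edgeR. The median log2 fold change was -0.08, and it was 0.06 without NP-treated replicate 3. Grsf1, a binding protein of mitochondrial RNA granules that binds G-rich RNA such as the light-strand transcripts, had 81.6, 76.5 and 73.8 CPM in NP-treated aortas, against 62.4, 58.75 and 67.3 CPM in untreated aortas. All NP-treated values of Grsf1 lay above all untreated ones, as in 2.47% of tested genes, and its log2 fold change of 0.30 (SE 0.16) missed the threshold, with an unadjusted p of 0.0969 and an adjusted p of 0.999992 by edgeR. Slirp, the partner of Lrpprc in stabilising mitochondrial mRNA, had 28.3, 13.9 and 12.25 CPM in NP-treated aortas, against 11.3, 15.3 and 14.6 CPM in untreated aortas, with NP-treated replicate 1 alone high. Elac2, the enzyme that cuts the 3′ end of tRNAs out of the precursor, had 24.45, 22.4 and 21.97 CPM in NP-treated aortas, against 23.4, 30.75 and 25.3 CPM in untreated aortas.

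The remaining lists gave 0 genes past the threshold by edgeR as well. The fold was above 1 in 6 of 14 genes of mitochondrial DNA replication, 23 of 34 of mitochondrial translation, 29 of 37 assembly factors of the chain, 8 of 15 regulators of mitochondrial biogenesis and 18 of 23 genes often read as markers of mitochondrial abundance, beside 55.6% of all tested genes. The high counts rested on NP-treated replicate 1, without which the fold was above 1 in 7 of 34 translation genes, 12 of 37 assembly factors and 3 of 23 abundance genes. Without the same library it was above 1 in 6 of 14 replication genes and 10 of 15 biogenesis regulators, beside 49.7% of all tested genes. Replication genes had a fold above 1 in 9 of 14 without NP-treated replicate 3, untreated replicate 2 or untreated replicate 3. Cox11, which delivers copper to the Mt-co1 protein, had 5.33, 6.63 and 5.46 CPM in NP-treated aortas, against 4.28, 3.55 and 3.70 CPM in untreated aortas. Ndufaf4, an assembly factor of complex I, had 13.2, 11.05 and 9.895 CPM in NP-treated aortas, against 7.65, 9.14 and 8.56 CPM in untreated aortas. In both genes the NP-treated libraries lay above the untreated ones, as in 3 of the 37 assembly factors and 2.47% of all tested genes, with log2 fold changes of 0.59 (SE 0.28) and 0.43 (SE 0.23) that missed the threshold. Ecsit, which also serves complex I assembly, was the 1 of the 37 assembly factors wholly lower in NP-treated libraries, as were 3.2% of all tested genes. It had 20.9, 20.6 and 17.4 CPM in NP-treated aortas, against 22.9, 25.6 and 24.2 CPM in untreated aortas. Ppargc1b, a coactivator of nuclear genes for mitochondria, had 6.785, 7.05 and 6.41 CPM in NP-treated aortas, against 5.155, 2.61 and 5.49 CPM in untreated aortas, and its log2 fold change of 0.61 (SE 0.35) missed the threshold too.

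Outside these lists, the 6 genes whose pattern over the 6 libraries was most like the mean of the 10 genes were sought among 8796 genes with a usual symbol and a mean of at least 10 CPM. They were Fchsd1, Rangap1, Slc25a1, Tmem97, Itga5 and E2f2, with root-mean-square differences of 0.09 to 0.115 on the centred log2 scale. A likeness over 6 libraries, chosen as the closest of so many genes, is given as a description. Slc25a1, the citrate carrier of the inner mitochondrial membrane, had 38.6, 29.4 and 43.1 CPM in NP-treated aortas, against 41.0, 46.3 and 34.5 CPM in untreated aortas. Itga5, the alpha chain of a fibronectin receptor, had 234, 189 and 311 CPM in NP-treated aortas, against 238, 280.3 and 205 CPM in untreated aortas. Both were lowest in NP-treated replicate 2, like 9 of the 10 mitochondrial genes.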

How the data were processed

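Total RNA of 6 aortic libraries, 3 NP-treated and 3 untreated by their treatment label, was measured by RNA sequencing. The submitters' processing notes name HISAT2 2.0.4. The read counter, genome build, annotation, library selection and strand setting are not stated in the labels. The authors deposited whole-number counts per gene, not normalized, and FPKM values, which correct counts for gene length and depth. Mitochondrial ribosomal RNAs were not analysed here.

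Genes were kept with filterByExpr at a minimum count of 10. NP-treated and untreated libraries were compared with edgeR 4.0.16 (R 4.3.3) by its quasi-likelihood test with TMM scaling and group as the only term, with Benjamini-Hochberg adjustment over 16522 genes and a threshold of 0.05. Standard errors were derived from each fold change and its F value, and CPM uses TMM-scaled library sizes. Centred levels use log2 CPM with a prior count of 2. The edgeR test was tested on simulated data. Alternatives used DESeq2 1.42.0, limma 3.58.1 on voom values or on log2(FPKM + 1) and log2(FPKM + 0.1), other scalings, no filter, the replicate block and leaving out each library. Summed levels, shares and lists were described without a test.

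The members, lists and tests were chosen with earlier results of these data known. Named genes were the members and other mitochondrial rows, up to 3 genes of smallest p-value and up to 4 defining markers of each list described, and the 6 genes nearest in pattern. Of 355 list genes 19 were matched to no row and 2 were matched by an older symbol.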

Additional observations from a re-analysis of the deposited data

How the results depend on the processing

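None of the 10 genes passed the threshold in any of the 150 alternative fits, 15 for each gene. Over all genes, DESeq2 called 29, limma on log2(FPKM + 1) called 1 and limma on log2(FPKM + 0.1), chosen for this count after the data were seen, called 3. The 1 was AABR07065768.3, and the 3 were AABR07065768.1, AABR07065768.3 and MSTRG.29273, named after their values were seen. The fits with other scalings, without a filter, by limma-voom and without 1 library called 0 (0 to 0 over the leave-out fits). Same-numbered libraries deviated with correlations across genes of -0.171, 0.073 and -0.27, and differently numbered ones with -0.177 to 0.367. With 3 libraries a group these values cannot show whether the replicate numbers pair libraries, and the labels do not say. With the replicate block 0 genes were called. Of 90 fits that kept all libraries, 5 turned a direction. Mt-cyb was at -0.0132 on log2(FPKM + 1) and on log2(FPKM + 0.1), and Mt-co2 was at -0.0155 on both and at -0.000903 without TMM scaling. Of 60 fits that left out 1 library, 15 turned a direction, and the cause was not tested. Log2 fold changes over these ranged from -0.418 to 0.188 for Mt-nd5, -0.263 to 0.318 for Mt-cyb, -0.0802 to 0.291 for Mt-co1, -0.113 to 0.248 for Mt-co2 and -0.271 to 0.0668 for Mt-atp6. The difference in the share of counts was -0.1426 to -0.4089 percentage points with other denominators or all mitochondrial rows. It ranged from -1.694 without NP-treated replicate 3 to 0.8613 without NP-treated replicate 2, and was -1.412, 0.3231 and 0.04852 without untreated replicates 3, 2 and 1.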
